A study of Rattus norvegicus with 4 samples.

Results

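The immediate early transcription factors are a set of 10 genes, namely Fos, Fosb, Fosl1, Fosl2, Jun, Junb, Jund, Atf3, Egr1 and Myc. They were found in the peak lists by the NCBI rat gene ID of each symbol, as the RefSeq table of GRCr8 pairs them. Of the 10 genes, 9 had an m6A peak. In all, 8729 genes had a peak in either group, and the share of all rat genes with a peak was not computed. Neonatal rat cardiac fibroblasts (CFs) from the hearts of healthy Sprague-Dawley rats at most 3 days old received either the empty plasmid (Vector group) or a plasmid with rat FTO cDNA (FTO group), and RNA was collected 48 h later. FTO is an enzyme that removes m6A, a methyl mark on adenosines of mRNA. The labels give the cells of the Vector group as WT and those of the FTO group as FTO overexpression, and each group had 1 m6A-IP library and 1 input library. The peaks of each group were deposited as 1 list, in which a peak is a stretch of a transcript where RNA pulled down with the m6A antibody exceeded the input.

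Immediate early factors are genes that cells transcribe within minutes of serum, growth factors, stretch or stress, before any new protein is made, and their mRNAs are short-lived. Proteins of the Fos and Jun families join through leucine zippers to form AP-1, which binds DNA as a dimer. Atf3 is a related leucine zipper factor induced by stress, Egr1 is a zinc finger factor, and Myc binds DNA together with Max. In CFs these factors act downstream of growth factors and mechanical load, and AP-1 and Egr1 are known regulators of matrix genes.

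The Vector list held 21249 peaks on 7894 genes and the FTO list held 17796 peaks on 7297 genes, so the FTO list was shorter overall. A peak is given by its length in bp, its Ensembl transcript and usually a gene ID, and neither position nor height was used here. The sequencing depth is unknown. Because each group is a single pair of libraries, replicate error could not be measured and no test between the groups was made. The transfected gene, Fto, had 3 Vector peaks and 9 FTO peaks, without a separation of plasmid and endogenous transcripts. Peaks do not measure the level of a transcript, so markers could only be checked as listed or not listed. Of 8 fibroblast markers, 4 had a Vector peak and 4 an FTO peak, Pdgfra having 7 and 6, while Col1a1, Col1a2 and Vim had none in either list. Of 6 cardiomyocyte markers, 5 had a Vector peak and 4 an FTO peak, and these included Tnnt2 with 4 and 7 peaks, Myh6 with 7 and 7, and Myh7 with 8 and 5. Of 4 endothelial markers, 0 had a Vector peak and 1 an FTO peak. The part of cardiomyocyte RNA in the peaks of the immediate early factors was not tested, and in such bulk RNA fewer cells of a type and less RNA per cell cannot be told apart.

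All 9 immediate early factors with a peak were listed in both groups, where 74.0% of all genes with a peak were listed in both. The number of peaks was the same in both groups for 7 of the 9, namely Fos, Jun, Junb, Jund, Atf3, Egr1 and Myc, each with 1 peak. Fosl1 had more peaks in the FTO group and Fosl2 had fewer. Over all 8729 genes, 37.4% had as many peaks in the FTO group, 41.4% had fewer and 21.2% had more. The 9 genes together had 12 Vector peaks and 12 FTO peaks. These numbers are as listed. Scaling of the FTO numbers by 1.194 for the shorter list turns each gene with equal numbers higher by construction, so 8 of the 9 factors and 60.1% of all genes were then higher in the FTO group, and nothing is read from this for the factors. Fosl2 was lower both with and without the scaling. Of the 1774 genes with 1 Vector peak of at least 500 bp, which is the kind of gene that the 7 factors were in the Vector list, 66.1% had exactly 1 FTO peak. Of the 3341 genes with 1 Vector peak of any length, 56.1% had exactly 1 FTO peak.

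Most of the lengths were also the same. Fos, Junb, Jund, Egr1 and Myc had a peak of exactly the same length in both groups, so 5 of the 9 genes had an identical set of peak lengths. Equal length does not show that a peak was unchanged in position or height. Exon and transcript lengths were not used, so whether such a peak spans a whole exon or transcript was not tested. Over the 6462 genes with a peak in both groups, 28.4% had an identical set. With 7 of the 9 genes having a single peak, the closer comparison is with the 1873 genes that had 1 peak in each group, of which 61.7% had the same length in both. Of the 1173 such genes with a Vector peak of at least 500 bp, 55.8% had the same length. Of the 7 factors 5 had the same length, which is 71.4% (95% Wilson interval 35.9% to 91.8%, counting error only). The 7 genes were chosen with earlier results of these data known. The interval is too wide to set them apart from either share, and no conclusion is drawn from it. When genes that lost or gained peaks are kept in the count, 36.9% of the 1774 genes with 1 Vector peak of at least 500 bp had 1 FTO peak of the same length.

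**Figure D1:**
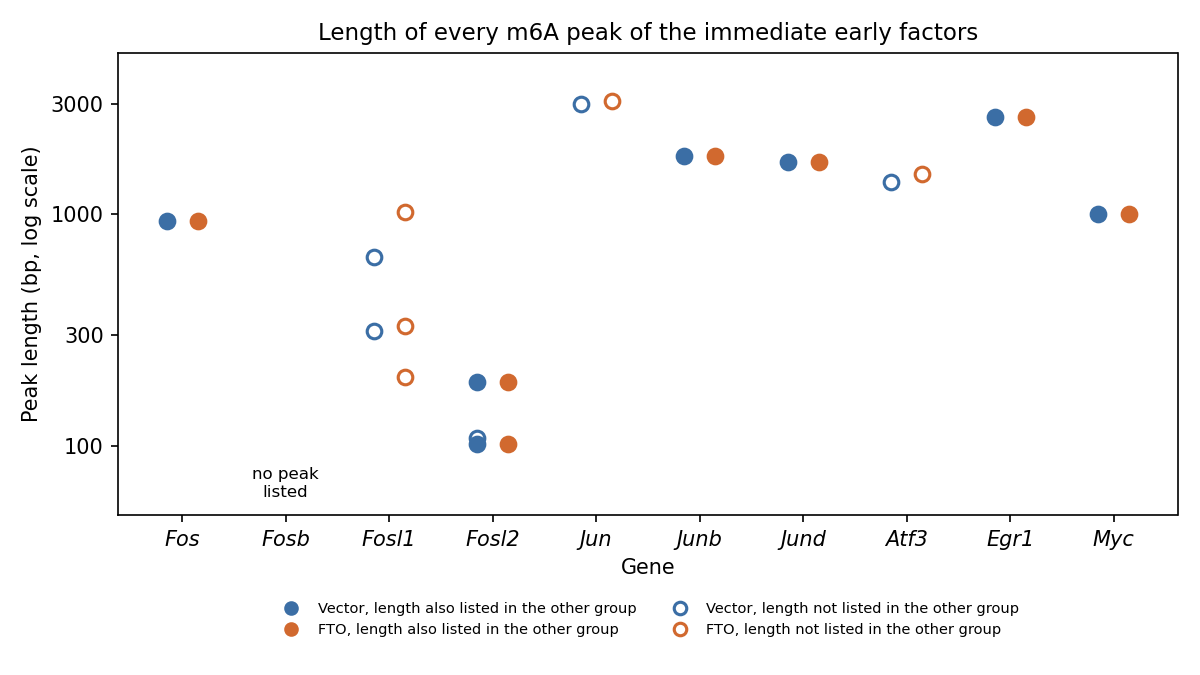
Length in bp (log scale) of each listed m6A peak of the 10 immediate early factors, with Vector peaks in blue and FTO peaks in orange, filled where the same gene had a peak of that length in the other group. Fos, Junb, Jund, Egr1 and Myc show 1 filled point in each group at the same height, Jun and Atf3 lie slightly higher in the FTO group, and Fosl1 has only open points.

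The Jun family forms the core of AP-1, since Jun proteins can pair with each other as well as with Fos proteins. Its 3 genes lack introns, and each had a single long peak. Jun (gene ID 24516), the founding member and a target of the JNK kinases, had a peak of 3005 bp in the Vector list and of 3089 bp in the FTO group. The FTO peak was thus 84 bp longer, a difference of 2.8%. Junb (gene ID 24517), which often counters Jun in growth control, had a peak of 1783 bp in both groups. Jund (gene ID 24518), the member made in resting cells as well, had a peak of 1679 bp in both groups. The Jun peak was longer than 98.5% of the peaks in the Vector list and the Junb and Jund peaks were longer than 94.3% and 93.5%. The 3 genes therefore carried peaks longer than most in the Vector list, whose median was 203 bp, and differed by less than 100 bp between the groups.

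The Fos family supplies the partners that cannot pair with each other and need a Jun protein. Only the Fos and Jun families had several genes in the set. Peak numbers differed between genes of the Fos family, through Fosl1, Fosl2 and Fosb, and not between those of the Jun family. Fos (gene ID 314322), the classical serum-induced gene, had a peak of 936 bp in both groups. Fosb (gene ID 100360880), which shares this induction, had no peak in either list. The RefSeq table had no symbol for 234 Vector gene IDs and 225 FTO gene IDs, and 248 Vector peaks and 213 FTO peaks had no gene ID, so a Fosb peak among these was not seen here.

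Fosl1 (gene ID 25445), which encodes Fra-1 and is induced later and for longer than Fos, differed most between the groups. In the Vector group it had a peak of 652 bp and a peak of 313 bp. In the FTO group it had peaks of 329 bp, 198 bp and 1028 bp. No length was shared between the groups, and all 5 peaks were assigned to the same Ensembl transcript. The summed length was 965 bp for Vector and 1555 bp for FTO, a difference of 590 bp or 61.1%. The longest peak was 376 bp longer in the FTO group. The peaks of 313 bp and 329 bp lie within 10% of each other. By peak number, however, the 313 bp peak was the last of the gene in the Vector list and the 329 bp peak the first in the FTO list. Whether they cover the same stretch was not determined. Among the 1738 genes with 2 Vector peaks, 13.2% had more peaks in the FTO group. Of the 160 genes that had 2 Vector peaks and 3 FTO peaks, 9 (5.62%) shared no length between the groups, Fosl1 among them. This pattern is the description of Fosl1 itself, so its match is by construction and nothing is read from the small share.

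Fosl2 (gene ID 25446), which encodes Fra-2, had the shortest peaks of the set. In the Vector group they were 189 bp, 108 bp and 102 bp long. In the FTO group the peaks of 189 bp and 102 bp were listed again, and the peak of 108 bp was not. The order of the shared lengths was the same in both lists, and the 108 bp peak stood between them in the Vector list. The FTO peaks, numbered 40512 and 40514, were not consecutive. Nor were all the Vector peaks, numbered 46170, 46171 and 46174. Numbers reached 59557 for 21249 Vector peaks and 52060 for 17796 FTO peaks, so gaps were common in both lists. Whether a peak between the 2 FTO peaks was called and left out is unknown, and nothing is read from the gap. The summed length was 399 bp and 291 bp. Of the 964 genes with 3 Vector peaks, 56.7% had fewer FTO peaks. Of the 289 genes that went from 3 to 2 peaks, 178 (61.6%) had both FTO lengths among their Vector lengths, as Fosl2 did. Here too the pattern is the description of the gene itself. The 108 bp peak was longer than only 15.5% of the Vector peaks. No peak of Fosl2 reached 200 bp, so with a minimum of 200 bp the gene left both lists and Fosl1 had 2 peaks in each group.

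Atf3 (gene ID 25389), which binds cAMP response elements and can pair with Jun proteins, had a single peak of 1384 bp in the Vector list and of 1493 bp in the FTO group. The FTO peak was 109 bp or 7.88% longer. Atf3 and Jun were the 2 of the 7 single-peak factors whose length differed, and in both the FTO peak was the longer one. The share of longer peaks over genes whose length differed was not computed, so nothing is read from this direction. The shares that follow include genes of equal length, so they stand beside 2 of the 7 factors. Among the 1873 genes with 1 peak in each group, 21.8% had a longer peak in the FTO group, and 23.7% did so among the 1173 with a Vector peak of at least 500 bp. In the 278 genes behind the latter share the median gain was 116 bp, with quartiles at 40.25 bp and 248 bp. The gain of 84 bp in Jun and of 109 bp in Atf3 lay between these quartiles.

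Egr1 (gene ID 24330), which binds GC-rich promoters and is held back by the co-repressors Nab1 and Nab2, had a peak of 2632 bp in both groups. It was the longest peak of the set after that of Jun and was longer than 97.9% of the Vector peaks and 97.4% of the FTO peaks. Myc (gene ID 24577), a regulator of growth and ribosome production whose mRNA is a known m6A target of the IGF2BP readers, had a peak of 1007 bp in both groups. This peak was longer than 85.9% of the Vector peaks and 83.4% of the FTO peaks.

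Taking the 7 single-peak factors in order of length, Jun stood first, followed by Egr1, Junb, Jund, Atf3, Myc and Fos, and this order was the same in both groups. Their lengths ran from 936 bp to 3005 bp in the Vector group and from 936 bp to 3089 bp in the FTO group, with a median of 1679 bp in each. All 1873 genes with 1 peak in each group had medians of 730 bp (Vector) and 755 bp (FTO). Fos and Myc lay near the middle of these genes, longer than 58.3% and 61.1% of them in the Vector group. Egr1 and Jun were longer than 94.4% and 96.7%, and Junb, Jund and Atf3 were longer than 83.0%, 80.7% and 72.8%. Each of the 9 genes had all its peaks on 1 Ensembl transcript, so no difference in length came with a change of the assigned transcript.

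**Figure D2:**
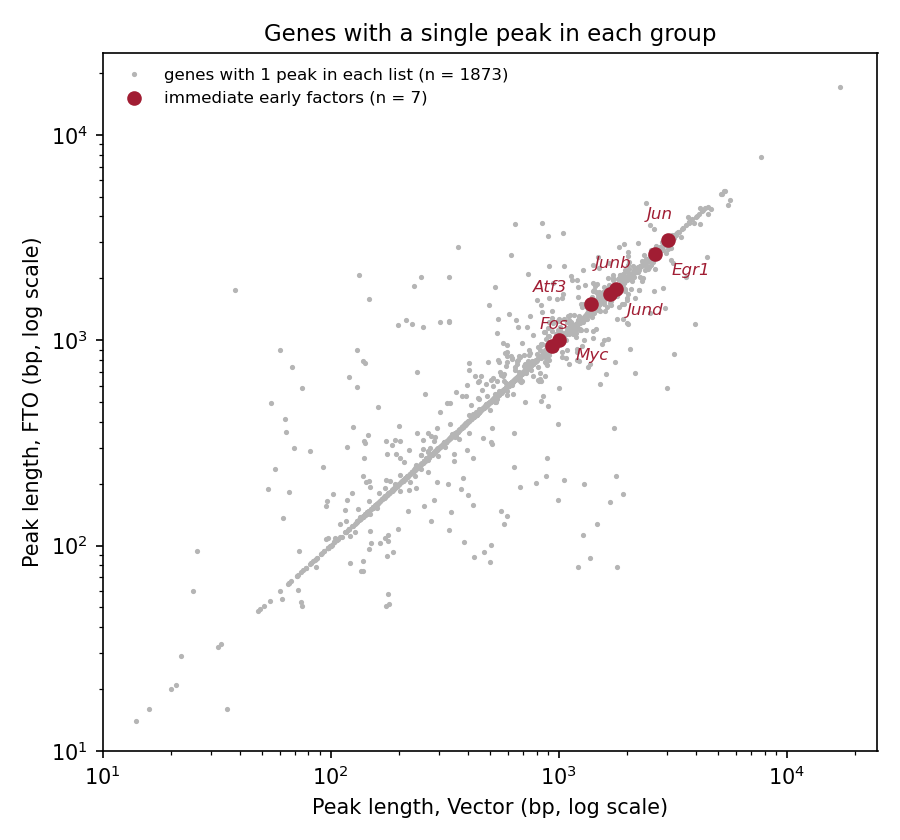
Peak length in the FTO group against the Vector group, both in bp on log scales, for the 1873 genes with 1 peak in each group (grey) and the 7 immediate early factors among them (red). The factors lie on or just above the diagonal, between 936 bp and 3089 bp, with Fos and Myc nearest the middle of the genes and Jun and Egr1 farthest above it.

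Peak by peak, 7 of the 12 Vector peaks of the set were matched in the FTO list by gene and length, a share of 58.3% (95% Wilson interval 32.0% to 80.7%, counting error only). Over all Vector peaks the share was 57.3%, and over all FTO peaks it was 68.4%, against 58.3% for the FTO peaks of the set. The peaks without a partner were those of Jun, Atf3 and Fosl1 and the 108 bp peak of Fosl2. With lengths within 10% accepted, 10 of the 12 Vector peaks had a partner, where 63.7% of all Vector peaks did. Summed over the set, the lengths came to 13790 bp for Vector and 14465 bp for FTO. Of the difference of 675 bp, Fosl1 contributed 590 bp.

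The genes around these factors were described by 4 lists, written whole, with 78 of 109 genes having a peak in either group. The share of all rat genes with a peak was not computed, so such counts are not read as high or low. Of all 8729 genes with a peak, 41.4% had fewer FTO peaks, 37.4% as many and 21.2% more. Vector peaks alone were listed for 1432 of them and FTO peaks alone for 835. Other immediate early genes, from nuclear receptors to feedback phosphatases, had peaks for 25 of 36. Peaks were as many in both groups for 18 of the 25, fewer in the FTO group for 5 and more for 2, and their median difference was 0, as over all genes. A single peak in each group was found for 15 of them, and 7 of these 15 had the same length. Zfp36, Zfp36l1 and Zfp36l2, which encode proteins that promote the decay of immediate early mRNAs, had peaks of 1768 bp, 2558 bp and 3254 bp, each with the same length in both groups. Egr2, a relative of Egr1, had a peak of 2071 bp in the Vector list and of 2108 bp in the FTO group, while Egr3 and Egr4 had none. Dusp6, a phosphatase of ERK, had a single peak of 833 bp and 1483 bp. Klf6 went the other way, with 574 bp and 127 bp. Arc had a Vector peak of 1429 bp and no FTO peak, and it was the only gene of this list with a peak in 1 group alone.

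Other leucine zipper factors that can join or neighbour AP-1 had peaks for 23 of 26 genes, with 13 as many, 8 fewer and 2 more in the FTO group and a median difference of 0. Atf7, a relative of Atf2, had 5 Vector peaks, of 93, 97, 153, 158 and 198 bp, and 1 FTO peak, of 93 bp. Jdp2, which represses AP-1, had 4 peaks of the same 4 lengths in both groups, the longest being 778 bp. Batf, Mafg and Ddit3 had Vector peaks alone, with 2, 2 and 1, and Batf2 had 1 FTO peak alone. Like the Jun genes, Cebpb and Cebpd lack introns, and each had 1 peak of the same length in both groups, of 1396 bp and 1139 bp. Cebpa, which also lacks introns, had a peak of 2417 bp and 2496 bp. Genes of the 4 lists that are named without falling under a difference of 3 peaks or the nearest length were picked after their values were seen.

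Kinases and factors upstream of the immediate early genes had peaks for 20 of 31, and fewer FTO peaks were listed for 10, as many for 6 and more for 4. The median difference was -0.5, and with a minimum of 200 bp fewer FTO peaks were listed for 3, as many for 9 and more for 4. The shares over all genes at this minimum were not computed. Srf, which binds the serum response element of Fos and Egr1, had 2 Vector peaks, of 267 and 829 bp, and 4 FTO peaks, of 262, 267, 823 and 2357 bp. Its cofactor Elk1 had a peak of 1392 bp in both groups and Elk4 had 3 peaks of the same lengths in both. Mapk3, Mapk9, Map2k4 and Nab2 had Vector peaks alone, and Gsk3b had FTO peaks alone. Over all 8729 genes, 1432 had Vector peaks alone and 835 had FTO peaks alone. The Egr1 co-repressor Nab1 had 5 Vector peaks and 3 FTO peaks, and the 3 FTO lengths were all among the Vector lengths.

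Genes of the Myc network had peaks for 11 of 17, with 5 as many, 3 fewer and 3 more in the FTO group and a median difference of 0. Max, the partner of Myc, had 3 Vector peaks, of 108, 198 and 1401 bp, and 2 FTO peaks, of 198 and 1447 bp. Mxi1, which competes with Myc for Max, had 1 Vector peak, of 172 bp, and 4 FTO peaks, of 133, 172, 339 and 449 bp. The relative Mycn had 2 Vector peaks and no FTO peak, whereas Myc had 1 peak in each group. Atf7 and Mxi1 were the genes of the 4 lists whose numbers differed by 3 or more.

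**Figure D3:**
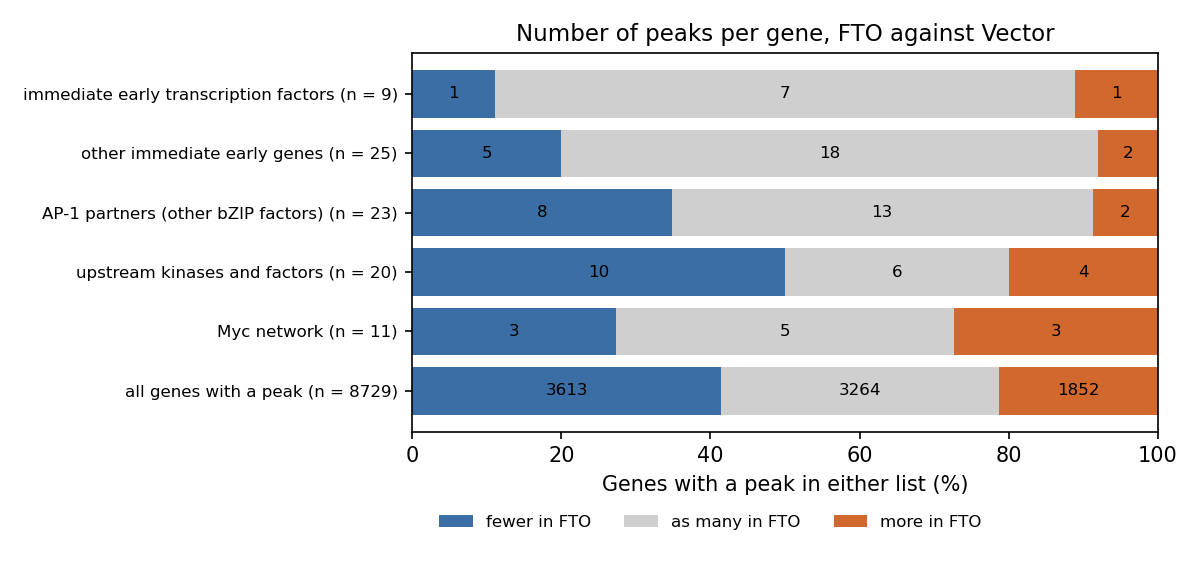
Share of genes (%) with fewer (blue), as many (grey) or more (orange) m6A peaks in the FTO group than in the Vector group, for the immediate early factors, the 4 related lists and all genes with a peak, with the number of genes written in each bar. The immediate early factors have 1 gene fewer, 7 as many and 1 more, and all genes have 3613, 3264 and 1852.

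By the pair of peak numbers and the nearest summed lengths, the genes of these lists most like each factor could be named over the 2 peak lists. Zfp36 was nearest to Junb, the summed absolute difference being 30 bp. Ier5 was nearest to Fos, at 60 bp, and to Myc, at 202 bp, with a peak of 906 bp in both groups. Klf10 was nearest to Jund at 78 bp, Cebpb and Elk1 to Atf3 at 109 bp each, Zfp36l1 to Egr1 at 148 bp and Zfp36l2 to Jun at 414 bp. For the 7 single-peak factors there were 27 genes to choose from. Fosl1 and Fosl2 had only 2 and 5 genes to choose from. The nearest were Map2k2, which differed from Fosl1 by 1392 bp, and Elk3, which differed from Fosl2 by 774 bp.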

How the data were processed

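m6A-seq was performed for the authors by a sequencing company on 1 m6A-IP and 1 input library of the Vector and of the FTO group. The submitters' processing notes name cutadapt 1.9.3, HISAT2 2.0.4 and the build rn6, without their roles. Peak names carry the prefix MACS, and the caller's version and threshold are not given in the sources used here. The deposited value is the peak length in bp, not normalized, with 1 list per group. Depth is unknown.

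Genes were taken by NCBI gene ID, or by transcript where none was given. Symbols came from the RefSeq table of GRCr8 and matched 7489 of 7723 Vector IDs and 6920 of 7145 FTO IDs. Peaks of a gene were paired 1 to 1 when their lengths were equal. The count of pairs was checked on a simulated copy of the Vector list in which the changed peaks had lengths found nowhere else. That check covers the counting only, not whether equal lengths mean the same peak and not the pairing within 10%. With no replicates no p-values were computed, and Wilson intervals cover counting error only. The members and lists were chosen with earlier results of these data known, and the minimum of 500 bp for single peaks was set after the lengths were seen. Named genes are the members, list genes differing by 3 or more peaks, the nearest list gene for each member, and examples picked after their values were seen. Alternatives were minimum lengths of 100 and 200 bp, summed length, scaling by list size, lengths within 10%, pairing by transcript, any peak of the same gene, and leaving out Fosl1 and Fosl2. Positions and enrichment were not used here. Python 3.11.15, numpy 2.4.6, pandas 2.3.3, scipy 1.17.1 and matplotlib 3.10.9 were used.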

Additional observations from a re-analysis of the deposited data

How the results depend on the processing

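The immediate early factors had 1 gene with fewer FTO peaks, 7 with as many and 1 with more. With a minimum of 200 bp these numbers were 0, 8 and 0, by summed length 1, 5 and 3, and with FTO numbers scaled by list size, which turns equal numbers higher by construction, 1, 0 and 8. Without Fosl1 and Fosl2, an alternative chosen after seeing the data, they were 0, 7 and 0. A minimum of 100 bp left them at 1, 7 and 1. Accepting any peak of the same gene paired 11 of the 12 Vector peaks, against 7 by equal length and by transcript. Among AP-1 partners, 1 gene had more FTO peaks with a minimum of 100 or 200 bp, against 2, and among upstream genes 3 had fewer with a minimum of 200 bp, against 10. The other counts of the 4 lists stayed within 1.5 times. For the minimum lengths and for summed length, the shares over all genes were not computed. Nothing is therefore read from these shifts for the factors or the lists. Each minimum only removes short peaks; the cause of the rest was not tested. Leaving out a replicate could not be done, and the unknown depth bounds what peak numbers can show. No paired analysis was possible because a group is 1 pair of libraries, so replicate numbers do not exist.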
